A study of Arabidopsis thaliana with 9 samples.

Results

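The IQD and TRM genes of Arabidopsis thaliana encode proteins that sit on, or are recruited to, plant microtubules. They were followed here in whole plants grown with a dichlorobiphenyl, with its hydroxylated form, or with the solvent alone. Members were the probe sets paired with exactly 1 gene whose current symbol is IQD or TRM followed by a number. The rule found 32 genes, each with 1 probe set, among 16722 probe sets with 1 gene, which stand for 16550 genes. They comprised 17 IQD genes, 14 TON1 recruiting motif genes and TRM82. TRM82 shares the symbol but is listed in RefSeq as a tRNA modification gene. It was therefore kept apart, and "TRM genes" below means the 14 TON1 recruiting motif genes. The RefSeq table holds 33 IQD genes and 29 TRM genes, so each family was covered only in part.

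IQD proteins are named for an IQ domain that binds calmodulin, the calcium sensor. Many of them decorate cortical microtubules or the plasma membrane, where they act as scaffolds that also bind kinesin light chain-related proteins. TRM proteins carry short motifs, one of which brings TON1 to microtubules. With TON1 and a protein phosphatase 2A complex they organise the cortical array and the preprophase band, the ring of microtubules that marks the future division plane. Both families are known for effects on the shape of cells and organs: SUN in tomato is an IQD gene, and the LONGIFOLIA genes, which lengthen leaves, belong to the TRM family.

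RNA came from whole plants at 21 days, grown in Magenta culture boxes on an MS nutrient medium under long days. The control group received acetone, the carrier of both compounds. The second group was given 50 mg per L of 2,5-DCB, a dichlorobiphenyl. The third was given 5 mg per L of 4'-OH-2,5-DCB, which carries an added hydroxyl group. The doses differ, so the exposed groups do not compare the compounds at one dose. Each group had 3 arrays, and whether these came from separate plants or boxes is not stated. The p-values therefore measure only the spread between arrays, which may be technical. No ecotype is named in the labels. Because whole plants were extracted, fewer cells of a type and less RNA per cell cannot be told apart.

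One array, 4'-OH-2,5-DCB replicate 1, stood apart before any comparison. Its SD across the tested probe sets was 1.684, against 2.128 to 2.203 on the other 8 arrays, and its highest correlation with another array was 0.927 (Pearson r, across probe sets). The comparisons below are therefore made with and without it. Array medians lay between 4.69 and 4.91 on the log2 scale, and the 25th percentile of probe sets between 2.80 and 3.72. TRM33 was the only member with a mean below that percentile in every group, so its signal may be background.

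Bright IQD and TRM genes tended to read low on this array and dim ones high, as other probe sets did. Of the 13 IQD genes whose mean on the other 8 arrays exceeded the median of all probe sets (4.72), 10 read lower on it than the mean of replicates 2 and 3, by a median of -0.82. The 4 dimmer IQD genes all read higher on it, with a median of 0.99. Of the 8 brighter TRM genes 7 read lower and of the 6 dimmer ones 5 read higher. Among all tested probe sets 73.9% of the brighter ones read lower on it and 13.6% of the dimmer ones. Among the 32 members IQD24 was displaced furthest down, at -1.89, and IQD25 furthest up, at 1.38. IQD21 and IQD32 were hardly displaced, at -0.03 and 0.01.

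**Figure D1:**
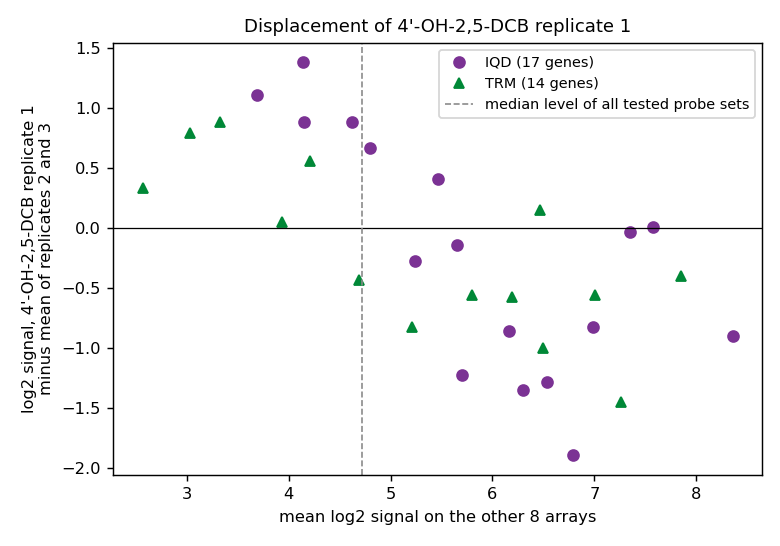
Displacement of 4'-OH-2,5-DCB replicate 1 (its log2 signal minus the mean of replicates 2 and 3, vertical axis) against the mean log2 signal on the other 8 arrays (horizontal axis) for the 17 IQD (circles) and 14 TRM genes (triangles). Dim genes lie mostly above 0 and bright genes mostly below it, from 1.38 for IQD25 to -1.89 for IQD24.

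The first comparison asked which of these genes differ between 2,5-DCB and the solvent. IQD21 fell 2.38-fold and was the only one of the 17 IQD genes called with all 9 arrays, at an adjusted p under 0.05 in limma over all tested probe sets. None of the 14 TRM genes was called. When 4'-OH-2,5-DCB replicate 1 was left out, IQD21, IQD22, IQD24, IQD28 and IQD31 fell under 2,5-DCB, and again no TRM gene was called. Leaving out that array does not touch the values of these groups. It lowers the spread that the groups share.

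IQD21 (AT3G49260) encodes a member of the calmodulin-binding IQ domain family. Its log2 signal was 7.97, 8.17 and 7.83 on the control arrays, 7.10, 6.74 and 6.37 with 2,5-DCB and 7.29, 7.29 and 7.35 with 4'-OH-2,5-DCB. The 3 groups do not overlap, with the control highest and 2,5-DCB lowest. The log2 difference between 2,5-DCB and control was -1.25 (SE 0.20, 95% interval -1.70 to -0.80), with a limma adjusted p of 0.0103. IQD21 was also called in the moderated F-test over the 3 groups (adjusted p 0.0237). Its adjusted p ranged from 0.00129 to 0.0598 over the 18 alternatives. It passed in 16 of them and missed the threshold without control replicate 2 (0.0598) and without 2,5-DCB replicate 2 (0.0535).

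Beside IQD21, IQD22 (AT4G23060) showed the largest difference. IQD22 has been described as a gene whose transcript is raised by DELLA proteins, the repressors of gibberellin signalling. It read 7.78, 7.66 and 7.37 in the control, 6.84, 6.38 and 6.45 with 2,5-DCB and 5.90, 6.54 and 6.90 with 4'-OH-2,5-DCB. All 6 exposed arrays lie below all 3 control arrays, and the exposed groups overlap each other. With 9 arrays its difference under 2,5-DCB was -1.05 (SE 0.26, adjusted p 0.0567), just outside the threshold. When that replicate was left out the same difference had an SE of 0.17 and an adjusted p of 0.00767. IQD22 passed in 8 of the 18 alternatives for 2,5-DCB, with adjusted p-values from 0.0036 to 0.219.

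IQD28, IQD24 and IQD31 were called when that array was left out and not with all 9 arrays. IQD28 (AT1G14380) read 5.76, 5.92 and 6.10 in the control and 5.46, 5.38 and 5.17 under 2,5-DCB, and these groups do not overlap. Its difference was -0.59 (adjusted p 0.077 with 9 arrays and 0.0213 without 4'-OH-2,5-DCB replicate 1). IQD24 (AT5G07240) read 7.16, 6.99 and 7.21 in the control against 6.57, 6.23 and 6.38, also with no overlap. Its difference of -0.73 had an adjusted p of 0.515 with 9 arrays, where its SE was 0.44. Without the displaced array the SE was 0.13 and the adjusted p 0.0089. IQD31 (AT1G74690) read 8.38, 8.59 and 8.63 against 8.20, 8.15 and 8.05, a difference of -0.40 (adjusted p 0.514 and 0.0441).

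**Figure D2:**
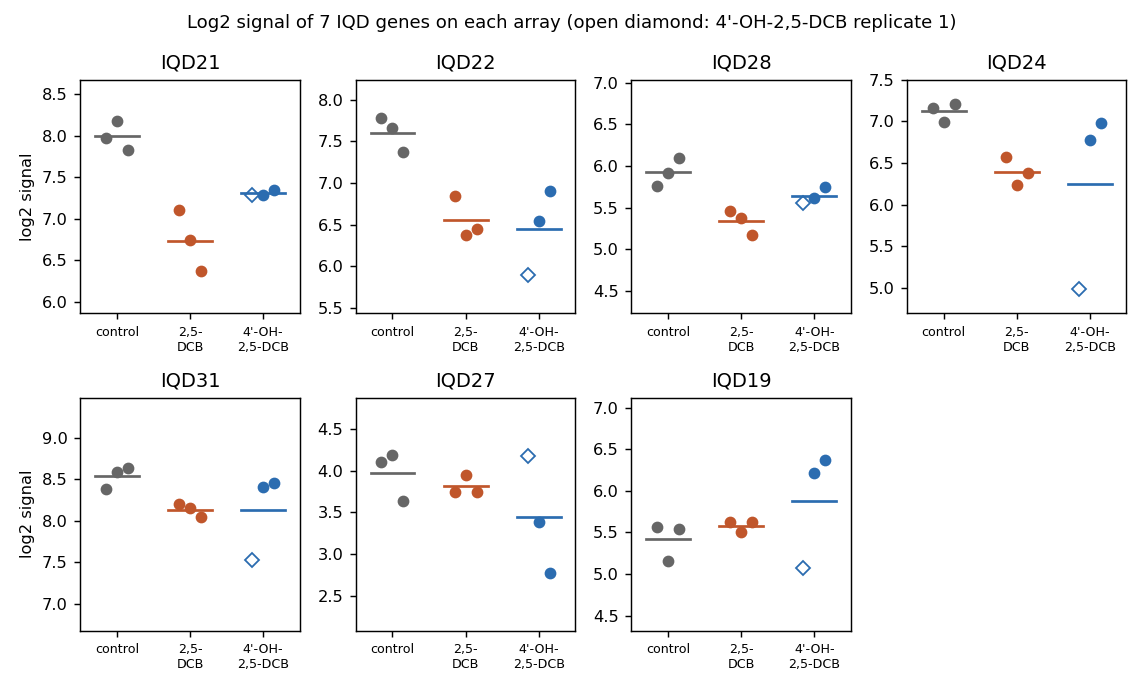
Log2 signal (vertical axis, the same span in each panel) of the 7 IQD genes called in any fit with or without 4'-OH-2,5-DCB replicate 1, or with the smallest F-test p-values, on each of the 9 arrays. Points are arrays, horizontal lines are group means and the open diamond is 4'-OH-2,5-DCB replicate 1, which lies below the other 8 arrays for IQD22, IQD24, IQD31 and IQD19.

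Across the family, 12 of the 17 IQD genes had a lower mean under 2,5-DCB than in the control. The median log2 difference was -0.34, against 0.04 over all tested probe sets, of which 44.2% lay below 0. The calls amount to 5.88% of the IQD genes, beside 4.65% of all probe sets, of which 1.82% were called higher and 2.82% lower. With replicate 1 of 4'-OH-2,5-DCB left out they are 29.4% of the IQD genes, all lower, beside 12.9% of all probe sets, with 5.92% called higher and 7.0% lower. In 6 IQD genes the 3 arrays of 2,5-DCB lay wholly below the 3 control arrays and in none wholly above, where 14.1% and 16.8% of all probe sets do so. The median stayed below 0 after quantile normalization (-0.36) and after centring of array medians (-0.33).

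No other IQD gene was called under 2,5-DCB, and these are given by their levels. IQD18 averaged 5.47 ± 0.23 in the control and 4.94 ± 0.36 under 2,5-DCB (mean log2 signal ± SD, n = 3). IQD23 averaged 6.42 ± 0.32 and 5.91 ± 0.17, IQD29 averaged 6.69 ± 0.13 and 6.36 ± 0.16, and IQD30 averaged 6.48 ± 0.29 and 6.09 ± 0.15. IQD32 averaged 7.67 ± 0.08 and 7.49 ± 0.14. The arrays of these groups overlapped for IQD18, IQD30 and IQD32 and touched for IQD23. For IQD29 they were barely separate, at 6.54 for the lowest control array and 6.53 for the highest of 2,5-DCB. IQD15 averaged 4.76 and 4.69, IQD20 averaged 4.5 and 4.69, IQD26 averaged 5.45 and 5.47, and IQD27 averaged 3.98 and 3.81. IQD16, a partner of the microtubule-severing protein katanin, averaged 3.93 and 4.16, IQD19 averaged 5.42 and 5.58, and IQD25 averaged 4.07 and 4.28.

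The TRM differences spanned a narrower range. Under 2,5-DCB their log2 differences ran from -0.56 (TRM26) to 0.34 (TRM28), and 11 of 14 were below 0, with a median of -0.21. Over all tested probe sets the median was 0.04 and 44.2% lay below 0. In 3 TRM genes the arrays of 2,5-DCB lay wholly below those of the control and in none wholly above. Of all probe sets 14.1% and 16.8% do so. With 9 arrays 0 of 14 were called and 2 had an unadjusted p under 0.05, as had 16.1% of all probe sets. In the fit of 8 arrays the limma count was again 0 and 4 had an unadjusted p under 0.05, as had 27.8% of all probe sets, of which 12.9% were called.

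TRM26 (AT2G17550) came closest. It read 6.37, 6.45 and 6.82 in the control, 6.16, 5.85 and 5.96 with 2,5-DCB and 5.38, 6.15 and 5.76 with 4'-OH-2,5-DCB. Every exposed array lies below every control array. The differences were -0.56 (adjusted p 0.247) and -0.78 (adjusted p 0.104), and without 4'-OH-2,5-DCB replicate 1 they were -0.56 (0.0608) and -0.59 (0.097). The call was reached in single alternatives: with array weights for 2,5-DCB (adjusted p 0.0358) and after quantile normalization for 4'-OH-2,5-DCB (0.0495).

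TRM28 (AT5G03670) was the TRM gene with the highest difference in both comparisons. It read 3.59, 4.2 and 4.09 in the control, 4.2, 4.45 and 4.25 with 2,5-DCB and 5.01, 4.46 and 4.45 with 4'-OH-2,5-DCB. The groups of 4'-OH-2,5-DCB and control do not overlap, and that of 2,5-DCB touches the control. Its difference under 4'-OH-2,5-DCB was 0.68 (adjusted p 0.157), and 0.49 (0.162) without the displaced array. TRM25 (AT5G62170) read 5.82, 6.13 and 5.88 in the control, 5.53, 5.12 and 5.57 with 2,5-DCB and 5.59, 5.91 and 6.40 with 4'-OH-2,5-DCB. Its arrays of 2,5-DCB lie below all of the others, with a difference from control of -0.54 (adjusted p 0.290, and 0.0886 without 4'-OH-2,5-DCB replicate 1).

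**Figure D3:**
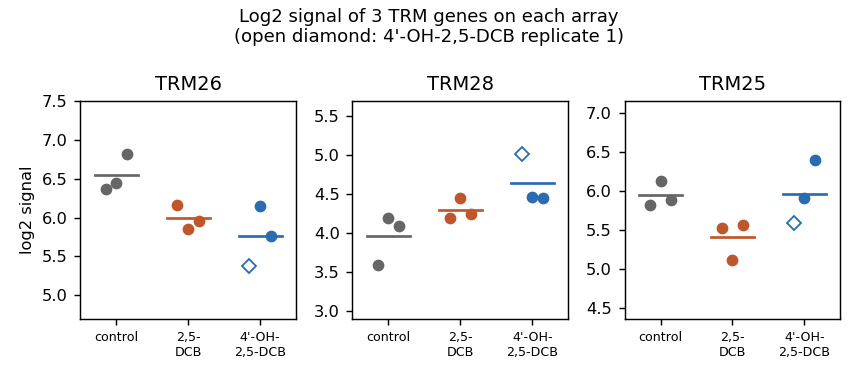
Log2 signal (vertical axis, the same span in each panel) of TRM26, TRM28 and TRM25, the TRM genes with the smallest F-test p-values, on each of the 9 arrays. Points are arrays, lines are group means and the open diamond is 4'-OH-2,5-DCB replicate 1; all 6 exposed arrays of TRM26 lie below its control arrays.

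None of the other 11 TRM genes was called under 2,5-DCB, and these are given by their control and 2,5-DCB levels. Of the brighter ones, TRM20 averaged 8.03 ± 0.06 and 7.70 ± 0.07 (mean log2 signal ± SD, n = 3), TRM15 averaged 7.30 ± 0.02 and 7.09 ± 0.26, and TRM19 averaged 7.0 ± 0.03 and 7.02 ± 0.14. TRM20 showed the clearest gap of these, since its 3 arrays of 2,5-DCB lay below all control arrays, yet it was not called. As for TRM26, its arrays of 4'-OH-2,5-DCB (7.40, 7.81 and 7.79) also lay below the lowest control array (7.96). Under 2,5-DCB, without 4'-OH-2,5-DCB replicate 1, the limma adjusted p of TRM20 was 0.0538, nearer the threshold than that of TRM26 (0.0608). TRM21, linked to the control of flavonoid synthesis, averaged 6.59 ± 0.19 and 6.32 ± 0.15. TRM27 averaged 6.48 and 6.39, TRM22 averaged 5.28 and 5.07, and TRM24 averaged 4.74 and 4.52. TRM34 (3.97 and 4.02), TRM30 (3.49 and 3.14), TRM23 (3.09 and 2.93) and TRM33 (2.65 and 2.5) were dimmer. TRM82, the gene outside both families, averaged 5.95 ± 0.17 in the control, 6.06 ± 0.20 with 2,5-DCB and 6.03 ± 0.60 with 4'-OH-2,5-DCB, where replicate 1 read 5.34 and the mean without it was 6.38. In yeast, Trm82 is a subunit of a tRNA guanine methyltransferase.

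**Figure D4:**
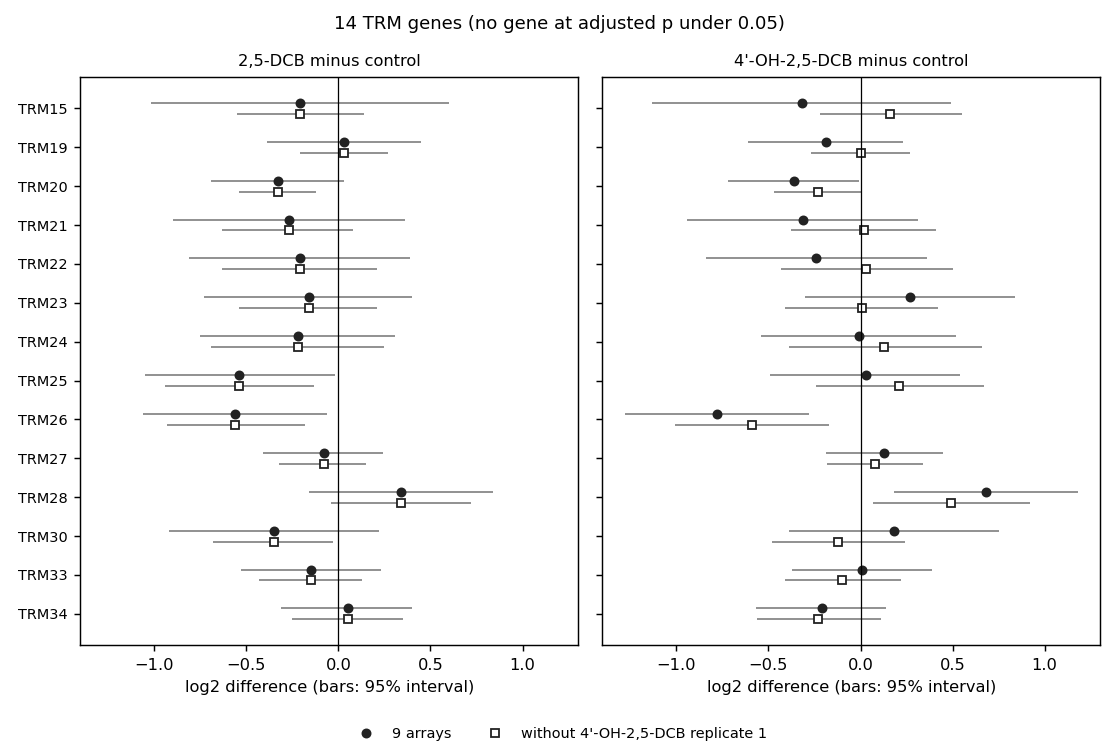
Log2 differences from control of the 14 TRM genes under 2,5-DCB (left) and 4'-OH-2,5-DCB (right), with 95% intervals, from 9 arrays (filled circles) and without 4'-OH-2,5-DCB replicate 1 (open squares). No TRM gene was called in these fits, and the squares on the right lie nearer 0 than the circles for TRM15, TRM21 and TRM22.

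The second comparison set 4'-OH-2,5-DCB against the solvent. With 9 arrays limma called none of the 17 IQD and none of the 14 TRM genes, while 3 of each family had an unadjusted p under 0.05, as had 17.3% of all probe sets. Of all probe sets, 2.91% were called, 1.0% higher and 1.9% lower. Once replicate 1 was left out, IQD22 and IQD27 fell and IQD19 rose. That is 17.6% of the IQD genes beside 7.16% of all probe sets, of which 3.41% were called higher and 3.74% lower. Of the TRM genes limma again called 0, and 2 had an unadjusted p under 0.05, as had 22.2% of all probe sets. With 9 arrays the 4'-OH-2,5-DCB and control arrays did not overlap in 3 IQD genes that were higher and 4 that were lower, and in 1 and 2 TRM genes, beside 11.2% and 11.4% of all probe sets. Without replicate 1 the IQD counts were 4 and 5, beside 20.7% and 17.8%. Both comparisons share the control arrays, so their results for a gene are not independent.

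For IQD22 the difference under 4'-OH-2,5-DCB was -1.16 (SE 0.26, 95% interval -1.75 to -0.57, adjusted p 0.0509), a 2.23-fold lower mean. Without replicate 1 it was -0.88 (SE 0.19, adjusted p 0.0328), a fall of 1.85-fold, and over the 18 alternatives its adjusted p lay between 0.0119 and 0.193 and passed in 7. For IQD21 the difference was -0.68 (adjusted p 0.114), and -0.67 (0.0931) without replicate 1. This gene passed in 1 of 18 alternatives, with array weights (adjusted p 0.0405), although its 3 arrays of 4'-OH-2,5-DCB lie below all control arrays.

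For IQD27 and IQD19, replicate 1 did not share the direction of replicates 2 and 3. IQD27 (AT1G51960) read 4.11, 4.19 and 3.64 in the control and 4.18, 3.38 and 2.77 under 4'-OH-2,5-DCB. Its difference was -0.53 (adjusted p 0.418) with replicate 1 and -0.90 (adjusted p 0.0481) without it. The 25th percentiles of replicates 2 and 3 were 2.86 and 2.84, so the low side of this difference may be background and its size is uncertain. IQD19 (AT4G14750) read 5.56, 5.16 and 5.54 in the control, 5.62, 5.5 and 5.62 with 2,5-DCB and 5.07, 6.21 and 6.37 with 4'-OH-2,5-DCB. On replicates 2 and 3 it stood above every other array, and on replicate 1 below every other array. Its difference was 0.46 (adjusted p 0.451) with replicate 1 and 0.87 (adjusted p 0.0147) without it. These calls rest on 2 arrays of 4'-OH-2,5-DCB.

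**Figure D5:**
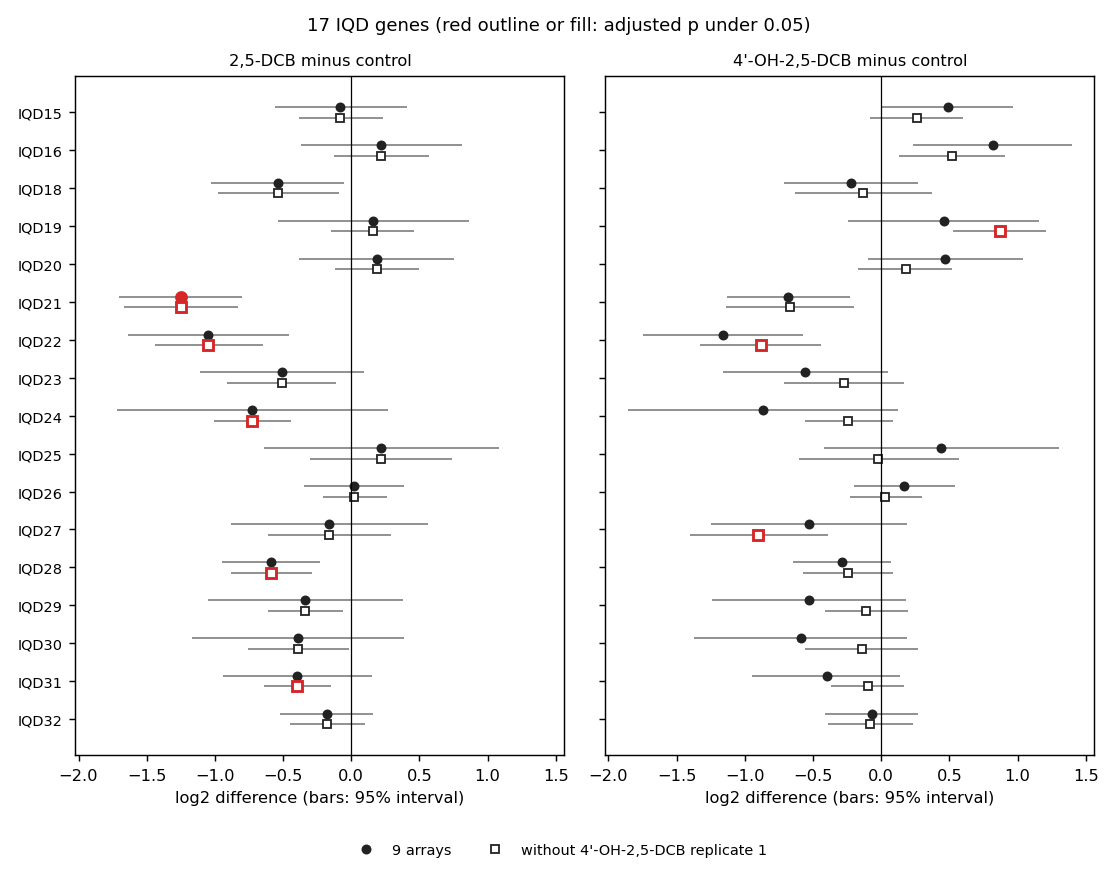
Log2 differences from control of the 17 IQD genes under 2,5-DCB (left) and 4'-OH-2,5-DCB (right), with 95% intervals, from 9 arrays (circles) and without 4'-OH-2,5-DCB replicate 1 (squares); red marks an adjusted p under 0.05. IQD21 is the only red circle, at -1.25, and red squares stand at 5 genes on the left and 3 on the right.

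Other IQD means under 4'-OH-2,5-DCB moved with replicate 1. IQD16 averaged 4.75 ± 0.57 and 4.46 without replicate 1, against 3.93 ± 0.11 in the control. The 3 arrays of 4'-OH-2,5-DCB for this gene (5.34, 4.71 and 4.2) lie above all control arrays, which read 4.0, 4.0 and 3.8. The mean of IQD24 was 6.25 with and 6.88 without replicate 1, that of IQD30 was 5.89 and 6.34, and that of IQD29 was 6.16 and 6.59. IQD25, IQD20 and IQD15 moved the other way, from 4.51 to 4.05, from 4.98 to 4.68 and from 5.25 to 5.03. The mean of IQD18 was 5.25 with and 5.34 without replicate 1, that of IQD23 was 5.86 and 6.15, and that of IQD26 was 5.62 and 5.48. For IQD28 the means were 5.64 and 5.69, for IQD31 they were 8.13 and 8.43, and for IQD32 both were 7.59. The median IQD difference from control was -0.29 with 9 arrays and -0.11 without replicate 1, beside 0.10 and 0.02 over all probe sets.

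Among TRM genes the group mean also moved with this array. TRM15 read 6.01 on replicate 1 and 7.31 and 7.61 on the others, and its mean went from 6.98 to 7.46 without it. The mean of TRM21 went from 6.28 to 6.61, that of TRM22 from 5.04 to 5.31 and that of TRM19 from 6.81 to 6.99. The mean of TRM20 went from 7.67 to 7.80 and that of TRM24 from 4.73 to 4.87. Those of TRM27 (6.61 to 6.56), TRM30 (3.67 to 3.38), TRM23 (3.36 to 3.10), TRM34 (3.76 to 3.74) and TRM33 (2.66 to 2.55) went down. The median TRM difference from control was -0.10 with 9 arrays and 0.01 without replicate 1. Quantile normalization moved the median of all probe sets in this comparison by -0.14. Relative to that median, the IQD median was -0.39 as deposited and -0.29 after quantile normalization, and the TRM median -0.20 and -0.21.

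Spread within the 4'-OH-2,5-DCB group depended in part on the same array. The median SD of the IQD genes was 0.172 over the control arrays, 0.154 over those of 2,5-DCB and 0.51 over those of 4'-OH-2,5-DCB, and 0.11 over its replicates 2 and 3. For TRM genes these values were 0.105, 0.16, 0.355 and 0.241, so replicates 2 and 3 alone stayed above the other groups. Over all tested probe sets they were 0.158, 0.158, 0.385 and 0.11. The last value of each set rests on 2 arrays, where a median SD tends to be lower than over 3.

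The last comparison set the exposed groups against each other, at their different doses. With 9 arrays limma called 0 probe sets of any kind, while 1656 had an unadjusted p under 0.05. Those, 9.9% of all probe sets, included 3 IQD genes and 1 TRM gene. In 3 IQD genes and 1 TRM gene every array of 4'-OH-2,5-DCB lay above those of 2,5-DCB and in none below, where 6.89% and 8.35% of all probe sets do so. With replicate 1 left out, 0.377% of all probe sets were called (0.179% higher and 0.197% lower), none of them an IQD or TRM gene, and 7 IQD genes and 1 TRM gene had an unadjusted p under 0.05, as had 14.8% of all probe sets. IQD21 was higher under 4'-OH-2,5-DCB by 0.57 (95% interval 0.12 to 1.02, adjusted p 0.397) and by 0.58 without replicate 1 (adjusted p 0.243), differences that did not pass. That of IQD22 was -0.11 (-0.70 to 0.48) and turned to 0.16 (-0.28 to 0.61) without replicate 1. IQD19, at 0.71 without replicate 1, had an adjusted p of 0.0892, IQD24, at 0.49, one of 0.171, and TRM25, at 0.75, one of 0.146. IQD28, IQD31 and IQD27 had differences of 0.30 (-0.06 to 0.66), -0.004 (-0.55 to 0.54) and -0.37 (-1.09 to 0.35) with 9 arrays, and 0.35, 0.30 and -0.74 without replicate 1. TRM26 and TRM28 differed by -0.23 (-0.73 to 0.27) and 0.34 (-0.16 to 0.84), and by -0.03 and 0.15 without replicate 1. Differences above 0 numbered 10 of 17 for IQD and 7 of 14 for TRM genes with 9 arrays, beside 57.4% over all probe sets. Without replicate 1, 14 of 17 IQD and 11 of 14 TRM differences lay above 0, as did 48.6% of those over all probe sets. In that fit 8 IQD genes had all arrays of 4'-OH-2,5-DCB above those of 2,5-DCB and 1 had them below, as 15% and 15.8% of all probe sets did.

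Partners of these proteins and other microtubule genes were covered thinly. No calmodulin, kinesin light chain-related or OVATE family gene of the lists had a probe set with 1 gene, and of the TON1 and phosphatase list TON1B alone did. TON1B, which TRM proteins recruit, read 5.69 to 6.24 in the control and 5.65 to 6.12 under 2,5-DCB, with a difference of -0.15 (adjusted p 0.95). Of 7 tubulin genes none was called with 9 arrays under either exposure. In the fit of 8 arrays TUB5, a beta-tubulin, fell by 0.65 on the log2 scale under 2,5-DCB (adjusted p 0.0142). It had read 6.22, 6.27 and 6.56 in the control and 5.55, 5.81 and 5.76 under 2,5-DCB. Of 8 genes of other microtubule-associated proteins none was called with 9 arrays, and SP1L2, a relative of SPIRAL1, fell by 1.02 under 2,5-DCB without replicate 1 (adjusted p 0.0172, and 0.0552 with 9 arrays). It read 3.35, 4.15 and 4.03 in the control and 2.75, 2.91 and 2.80 under 2,5-DCB, which is near the 25th percentile of those arrays, so the low side may be background. Under 4'-OH-2,5-DCB the smallest adjusted p of the tubulin list was that of TUBG1, a gamma-tubulin (0.162, and 0.0688 without replicate 1).

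Markers of tissues and of dividing cells were read beside these results. The 5 tested genes of the list for dividing cells were the Aurora kinases AUR1, AUR2 and AUR3, MCM7 and SIM. SIM is a cell cycle inhibitor and so not a marker of division. None of the 5 genes was called under either exposure with or without replicate 1. Their log2 summed signal, SIM included, was 8.09 to 8.29 in the control, 7.90 to 8.22 with 2,5-DCB and 8.07 to 8.47 with 4'-OH-2,5-DCB. For 4 markers of green tissue it was 12.13 to 12.22, 11.58 to 11.81 and 11.56 to 12.08. LHCB4.2, an antenna protein of photosystem II, fell by 0.95 under 2,5-DCB (adjusted p 0.0308). For 3 root markers the summed signal was 10.33 to 10.82, 11.23 to 11.75 and 11.34 to 12.11, most of it PYK10, a beta-glucosidase of ER bodies, which rose by 1.11 under 4'-OH-2,5-DCB (adjusted p 0.0438). In the fit of 8 arrays PYK10 also rose under 2,5-DCB (0.88, adjusted p 0.0205) and LHCB4.1 fell (-0.50, 0.0446). VGD1, a pollen pectin methylesterase, fell under both exposures in that fit (-1.13, 0.0325, and -1.30, 0.0431). It read 3.3, 4.29 and 4.35 in the control and 3.02, 2.72 and 2.82 with 2,5-DCB. Replicates 2 and 3 of 4'-OH-2,5-DCB read 2.44 and 2.91. These exposed readings are near those of SP1L2 under 2,5-DCB, so the low side of both differences may be background. Replicate 1, left out of that fit, read 4.2, inside the control range. The other markers of these lists were not called with 9 arrays, IRX10 (listed as GUT2), the single gene of the xylem list, and the 3 flower and pollen markers included. Their sums were 7.18 to 7.65, 7.13 to 7.56 and 6.64 to 7.38 for xylem, and 4.42 to 5.80, 4.28 to 4.57 and 4.09 to 5.31 for flower and pollen. The green marker sums of both exposed groups thus lay below the control and the root marker sums above it, without overlap. The root gap is in effect that of PYK10 alone. EXPA7 and EXPA18, the other root markers, read only 2.75 to 4.23 and were not called in either fit. EXPA18 overlapped the control in both groups, and EXPA7 did so under 4'-OH-2,5-DCB. For green tissue under 4'-OH-2,5-DCB the gap was narrow, 12.08 against 12.13, and the low end came from the displaced replicate 1. RCA, the brightest green marker, read 11.56 on both replicates 2 and 3, inside the control range of 11.54 to 11.59. Unlike the other green markers, LHCB4.3 had a higher mean under 2,5-DCB, by 0.29. IQD21, IQD22, IQD24 and IQD28 also lay below the control in both groups without overlap, and IQD29 and IQD31 did so with 2,5-DCB. So did TRM20 and TRM26 in both groups and TRM25 with 2,5-DCB. Under 4'-OH-2,5-DCB the gap was narrow for IQD24 (6.98 against 6.99) and IQD28 (5.75 against 5.76). Of all probe sets, 14.1% lay wholly below the control with 2,5-DCB and 11.4% with 4'-OH-2,5-DCB. The share that did so in both groups was not counted. The part of tissue make-up in these results was not tested.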

How the data were processed

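The deposited values are log2 signals of 38408 probe sets on each of 9 arrays. According to the submitters' processing notes they come from Affymetrix Expression Console. How that program summarized and background-corrected the probes, its version and the genome build are not stated. The values were used without further normalization. Of these probe sets, 16722 were paired with 1 gene by the platform annotation and tested, 759 with several genes and 20927 with none. Symbols were updated by gene ID from RefSeq (TAIR10.1): 16574 matched and 148 kept their names. IQD33 and TRM18 share probe sets with other genes and were not analysed here. Cross-hybridisation within the families was not tested. Sequences and coordinates were not used here.

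A model with 1 mean per group was fitted to these values over all 9 arrays with limma 3.58.1 under R 4.3.3 (lmFit, eBayes). Tests were two-sided, and p-values were adjusted by Benjamini-Hochberg over all 16722 probe sets. A gene was called at an adjusted p under 0.05. The number of arrays limits the precision. The fit was tested on simulated data, in which each gene had the same spread on all arrays. These data held no displaced array, so that test does not bear on calls that change with replicate 1. Differences and tests are given for the members called in any contrast, with or without 4'-OH-2,5-DCB replicate 1, and for the 3 of each family with the smallest F-test p-values. The other members are given by their levels, and IQD16 and TRM20 were described in more detail after their values were seen. From the other lists, called genes were named, or else the smallest p-value of a list that held several genes. The members, lists and tests were chosen with earlier results of these data known. The alternatives tried comprised quantile normalization, centred array medians, minimum mean signals at the 25th and 50th percentiles, all probe sets, only the groups compared, trend and robust eBayes, array weights, the replicate number as a block, and leaving out each array in turn.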

Additional observations from a re-analysis of the deposited data

How the results depend on the processing

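IQD21 under 2,5-DCB kept its direction in all 18 alternatives. The count of called IQD genes in that comparison, 1 with all arrays, was 3 after quantile normalization and with minimum mean signals at the 25th or 50th percentile. The 50th percentile left only 13 IQD and 8 TRM genes in the test, and the 25th left 17 and 13. The IQD count was 4 with only the groups compared, 2 with trend and robust options, 5 with array weights and 0 to 5 with 1 array left out. It was 0 without control replicate 2 or 2,5-DCB replicate 2 and 5 without 4'-OH-2,5-DCB replicate 1. Under 4'-OH-2,5-DCB the IQD count of 0 became 1 after quantile normalization, with either minimum and with trend and robust options, 4 with array weights, and 0 to 3 with 1 array left out. The TRM count of 0 became 1 with array weights for 2,5-DCB and 1 after quantile normalization for 4'-OH-2,5-DCB. Over all 16722 probe sets, 777 were called for 2,5-DCB, 1034 after quantile normalization, 712 after centring and 893 with trend and robust options. Minima at the 25th and 50th percentiles gave 1011 of 12541 and 924 of 8361. The count was 1317 of 38408 with all probe sets tested and 1725 with only the groups compared. It was 2450 with array weights, 397 with the replicate block and 181 to 2161 with 1 array left out. For 4'-OH-2,5-DCB 486 were called, 856 after quantile normalization, 509 after centring and 605 with trend and robust options. The minima gave 695 of 12541 and 718 of 8361. The count was 1204 of 38408 with all probe sets and 98 with only the groups compared. It was 1827 with array weights, 238 with the replicate block and 93 to 1197 with 1 array left out. Between the exposures 0 were called: 17, 21 and 17 after quantile normalization and with minima at the 25th and 50th percentiles, 9 with trend and robust options, 349 with array weights and 0 to 63 with 1 array left out.

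No difference that turned sign was called on either side. Those of 4'-OH-2,5-DCB minus 2,5-DCB turned with array weights for IQD22 (0.136), IQD24 (0.451) and IQD31 (0.275), and for IQD31 after quantile normalization (0.149). With 1 array left out they ran from -0.337 to 0.164 for IQD22, -0.507 to 0.489 for IQD24 and -0.165 to 0.296 for IQD31, the high ends without 4'-OH-2,5-DCB replicate 1 and the low ends without replicate 3. Without 2,5-DCB replicate 1 they were 0.034 for IQD22 and 0.029 for IQD31, and without 2,5-DCB replicate 2 0.003 for IQD31. TRM25 under 4'-OH-2,5-DCB (0.026) turned to -0.013 after quantile normalization and -0.044 after centring. It was -0.037, -0.004 and -0.189 without control replicate 1, control replicate 3 or 4'-OH-2,5-DCB replicate 3, and at most 0.213, without 4'-OH-2,5-DCB replicate 1. The median TRM difference between the exposures, 0.066, lay between -0.031 and 0.167 when single arrays were left out. The cause of these changes was not tested. No pairing by replicate number was seen: deviations of same-numbered arrays from their group means correlated at -0.247 to 0.074 over 9 pairs. Of the 9 arrays, 0 correlated best with their own number. Deviations within a group of 3 offset each other, and those of 4'-OH-2,5-DCB are marked by the displaced replicate 1. Shared boxes or batches can therefore not be excluded in this way.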
